A study of Mus musculus with 6 samples.

Results

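The renin-angiotensin genes Ren1, Agt, Ace and Agtr1a, the membrane peptidases Mme, Enpep, Anpep and Mep1a, and the tissue kallikrein gene Klk1 were examined in kidneys of polycystic mice given metformin or saline. The 9 genes were listed by name. A gene was measured where the platform annotation gave a transcript cluster (the array's unit for a gene) that symbol alone, and the cluster with the highest mean was taken. By this rule 8 of the 9 genes were measured, out of 22086 genes tested, and all 8 passed the filter on dim clusters. Ren1, the gene of renin itself, had no cluster with its symbol alone in the annotation used here and was not analysed here. Clusters with several symbols were not searched for it.

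All 6 arrays hold whole-kidney total RNA of female Pkd1 miR transgenic mice, in which, by its name, a microRNA transgene is directed at Pkd1, the gene mutated in most dominant polycystic kidney disease, so the saline group also carries the disease model. The 3 mice of the metformin group were injected intraperitoneally with metformin, a biguanide used against diabetes, at 150 mg per kg per day from postnatal day 35 to day 63, and the 3 control mice with saline. Kidneys were taken at day 63. No group without the transgene was analysed here, and the labels do not name the promoter that drives the transgene. In whole-kidney RNA, fewer cells of a type and less RNA per cell cannot be told apart.

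Renin cleaves angiotensinogen (Agt) to angiotensin I, and angiotensin-converting enzyme (Ace) trims it to angiotensin II, which raises blood pressure and sodium retention largely through the type 1a receptor (Agtr1a). In the kidney this system lies beside the brush border, the dense apical microvilli of the proximal tubule, which carry membrane-bound zinc peptidases. Aminopeptidase A (Enpep) removes the first residue of angiotensin II, aminopeptidase N (Anpep) acts on the product, neprilysin (Mme) cuts angiotensins, bradykinin and natriuretic peptides, and the meprin alpha subunit (Mep1a) is a secreted or membrane-associated metalloprotease. Tissue kallikrein (Klk1) releases kinins from kininogen and is made mainly in the connecting tubule, and Ace also breaks kinins down.

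Of the 8 measured genes, Ace, Mep1a, Enpep and Agt were lower with metformin, by 2.33-fold, 1.69-fold, 1.55-fold and 1.40-fold, and none was higher. All 8 changes lay below 0, as did those of 47.1% of all genes, with a median of -0.56 log2 units, where the median over all genes tested was 0.02. The 4 calls stand beside 9.08% of all genes called lower, 6.71% called higher and 15.8% called in either direction. In 6 of the 8 genes every metformin value lay below every saline value, beside 19.4% of all genes separated in that direction and 37.3% in either. A call is an adjusted p under 0.05 in limma's moderated test, with Benjamini-Hochberg adjustment over all 22086 genes, and each change is the metformin mean less the saline mean in log2 units.

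The sequences upstream of the 4 genes that were called are shown as a description, and shared control of these genes was not tested. Each is the 250 bases before the start of the gene on its own strand, 5′ to 3′, from RefSeq on build GRCm38.p6, with matches on either strand to the TATA box letters TATAAA, to GTTAAT, an arm of the motif of HNF1, and to CAAAGT, the core of the motif of HNF4, in capitals. Agt lies at chr8:124569707-124569956 on the minus strand, Ace at chr11:105967698-105967947 on the plus strand (the more upstream of its starts), Enpep at chr3:129332750-129332999 on the minus strand and Mep1a at chr17:43502774-43503023 on the minus strand.
Agt: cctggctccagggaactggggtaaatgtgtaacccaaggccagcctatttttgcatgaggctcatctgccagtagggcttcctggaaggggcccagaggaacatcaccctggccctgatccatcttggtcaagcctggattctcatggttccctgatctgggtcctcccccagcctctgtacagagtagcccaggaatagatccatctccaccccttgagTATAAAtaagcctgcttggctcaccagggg
Ace: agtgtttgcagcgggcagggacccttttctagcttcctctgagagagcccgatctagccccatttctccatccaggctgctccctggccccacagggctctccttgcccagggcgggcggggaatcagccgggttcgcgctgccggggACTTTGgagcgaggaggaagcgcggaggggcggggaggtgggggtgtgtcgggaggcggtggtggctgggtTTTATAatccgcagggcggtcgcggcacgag
Enpep: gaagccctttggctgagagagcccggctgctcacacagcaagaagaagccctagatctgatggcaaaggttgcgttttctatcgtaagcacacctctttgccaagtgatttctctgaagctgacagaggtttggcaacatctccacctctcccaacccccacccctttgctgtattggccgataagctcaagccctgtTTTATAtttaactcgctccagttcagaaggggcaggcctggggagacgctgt
Mep1a: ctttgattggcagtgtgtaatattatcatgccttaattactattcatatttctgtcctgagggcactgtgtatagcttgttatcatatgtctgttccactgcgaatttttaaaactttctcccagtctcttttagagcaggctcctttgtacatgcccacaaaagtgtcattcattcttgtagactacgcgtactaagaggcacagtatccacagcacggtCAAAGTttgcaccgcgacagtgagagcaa
TATAAA began 30 bases before the start in Agt, and its reverse complement lay 31 bases before the start in Ace and 52 in Enpep, while Mep1a had none. Windows of this length hold TATAAA in 12.4% of 32851 RefSeq starts. CAAAGT was found 29 bases before the start of Mep1a and, on the opposite strand, 102 bases before that of Ace. It is held by 12.6% of all windows. GTTAAT is held by 6.43% of all windows and was not in the windows of any of these 4 genes. Windows of the other genes with an entry were searched as well. Ren1 held TATAAA 29 bases before its start, Klk1 and Anpep held none of the motifs, and 1 of the 3 Mme windows held CAAAGT. The second Ace window held CAAAGT on the opposite strand, 221 bases before that start. Agtr1a has no entry. A match is a description of letters and not a binding site.

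Agt, the substrate of renin, is made by proximal tubule cells in the kidney and by liver and fat elsewhere. Its log2 values were 9.13, 8.98 and 9.26 in saline kidneys 1 to 3 and 8.55, 8.81 and 8.55 in metformin kidneys 1 to 3. Every metformin kidney lay below every saline kidney, by at least 0.18 log2 units. The means were 9.12 ± 0.14 and 8.63 ± 0.15 (SD, n = 3 per group), a change of -0.49 ± 0.12 (SE; limma adjusted p = 0.0340). In the fit blocked by replicate number Agt had a limma adjusted p of 0.0514. The 7 measured hepatocyte markers (of 9 listed) had mean levels between 8.21 and 8.76 in saline and between 7.96 and 8.47 in metformin kidneys, so these overlapped. The median change of that list was -0.28. Within it Alb, serum albumin, fell by 1.51 log2 units and Apoa2 by 0.67, while the fibrinogen chains Fgb at 1.26 (adjusted p = 0.228) and Fga at 0.55 (adjusted p = 0.578) lay above 0 and did not pass. The 10 measured fat cell markers (of 13 listed) had scores of 0.84, 1.52 and -0.37 in saline kidneys 1 to 3 and of -0.71, -0.63 and -0.64 in metformin kidneys 1 to 3, a score being the mean deviation of a list's genes from their own means over the 6 arrays. Of these Adipoq (-1.32) was called lower, a call that ended with no filter (adjusted p = 0.0564), and 3 were called lower in the blocked fit. The part of liver or fat cells in the change of Agt was not tested.

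Ace converts angiotensin I to angiotensin II and is carried by the proximal tubule brush border and by endothelium. The values of Ace were 12.56, 12.07 and 12.96 in saline and 10.68, 11.52 and 11.74 in metformin kidneys. The groups were 0.33 log2 units apart, although the values within a group spread over 0.89 in saline and 1.07 in metformin. The means were 12.53 ± 0.44 and 11.31 ± 0.56 (SD, n = 3 per group), a change of -1.22 ± 0.31 (SE; 95% interval -1.95 to -0.49; limma adjusted p = 0.0404). This was the greatest change among the 8 genes. Metformin kidney 1 was the lowest of the 6 kidneys, and without it the change of Ace was -0.90 with an adjusted p of 0.0889.

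Agtr1a, the receptor of angiotensin II, had values of 9.66, 9.20 and 9.92 in saline and 8.84, 9.10 and 9.18 in metformin kidneys. Saline kidney 2 stood only 0.013 log2 units above the highest metformin kidney, so the groups were barely apart. Its change of -0.55 ± 0.19 (SE; 95% interval -0.99 to -0.11) did not pass the test (limma adjusted p = 0.0919). Without saline kidney 2 it was -0.74 with an adjusted p of 0.0194. The paralog Agtr1b and the type 2 receptor Agtr2 changed by 0.16 (95% interval -0.09 to 0.41) and -0.07 (-0.33 to 0.19), neither past the test.

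**Figure D1:**
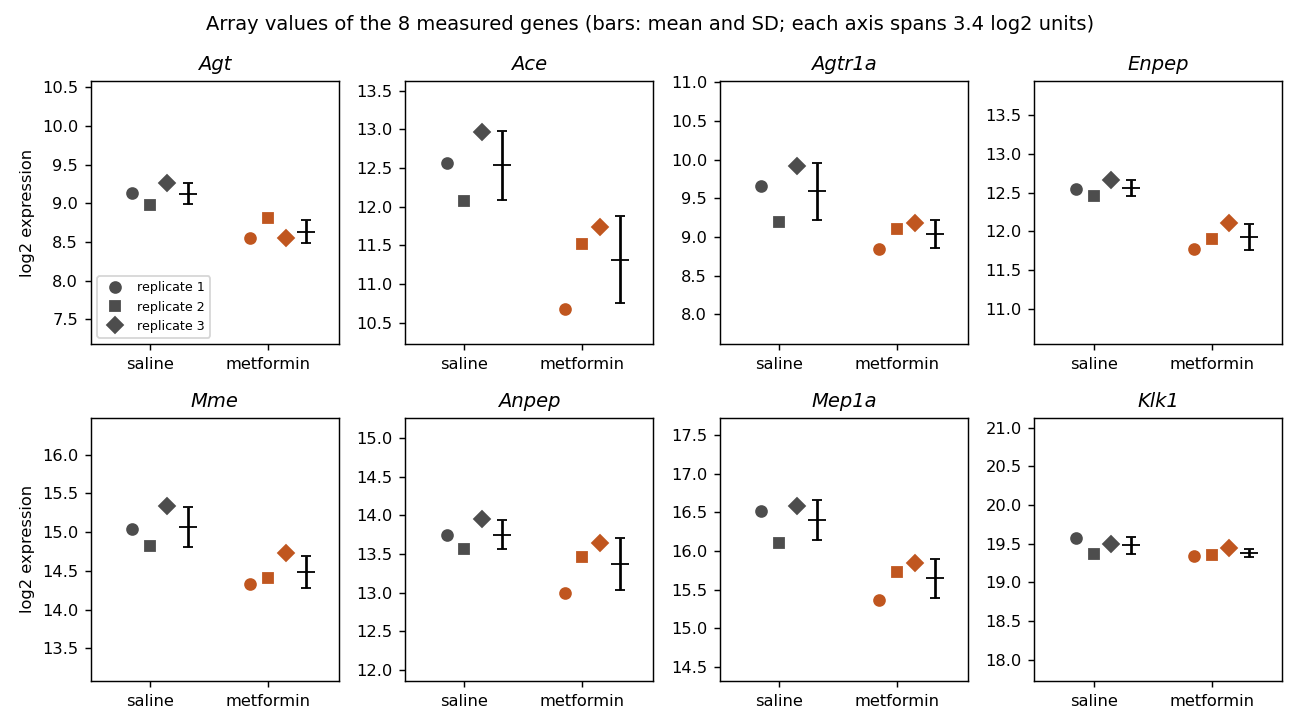
Log2 expression of the 8 measured genes by array, with saline in grey and metformin in orange, a marker shape per replicate number, and bars for the mean and SD of 3 arrays. Every axis spans the same range, and the metformin values of Agt, Ace, Agtr1a, Enpep, Mme and Mep1a all lie below the saline values, while those of Anpep and Klk1 overlap.

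Enpep, which degrades angiotensin II, had the smallest p of the 8 genes. Its values were 12.54, 12.46 and 12.67 in saline and 11.78, 11.90 and 12.11 in metformin kidneys. The gap of 0.35 log2 units between the groups was wider than the range within either, 0.21 in saline and 0.33 in metformin. The means were 12.56 ± 0.11 and 11.93 ± 0.17 (SD, n = 3 per group), a change of -0.63 ± 0.12 (SE; limma adjusted p = 0.0164).

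Mep1a, whose product cleaves matrix and peptide substrates at the brush border, had values of 16.51, 16.10 and 16.58 in saline and 15.36, 15.73 and 15.84 in metformin kidneys. The groups were 0.26 log2 units apart, with the lowest value again in metformin kidney 1. The change was -0.75 ± 0.17 (SE; limma adjusted p = 0.0295). Mep1b, the partner subunit of meprin, has 2 clusters, and only the one with the higher mean is given here. Its values were 13.36, 12.52 and 14.11 against 11.74, 12.39 and 12.84, which overlapped, and its change of -1.01 did not pass (limma adjusted p = 0.143).

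Mme, the gene of neprilysin, lay at the edge of the test. Its values were 15.04, 14.83 and 15.34 in saline and 14.33, 14.41 and 14.72 in metformin kidneys, with no overlap. The change of -0.58 ± 0.16 (SE) had a limma adjusted p of 0.0503, and of 0.0210 in the fit blocked by replicate number. Anpep, the aminopeptidase that acts after Enpep, had values of 13.74, 13.57 and 13.95 in saline and 13.00, 13.47 and 13.65 in metformin kidneys, so metformin kidney 3 lay above saline kidney 2. Its change of -0.38 had a 95% interval of -0.81 to 0.04 and did not pass (limma adjusted p = 0.194).

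Klk1, the only measured gene of the 9 that is known mainly from the connecting tubule, had values of 19.57, 19.36 and 19.50 in saline and 19.34, 19.35 and 19.44 in metformin kidneys. The groups overlapped and the change was -0.10 (95% interval -0.32 to 0.12; limma adjusted p = 0.521), an interval that leaves out a fall as large as the estimate for any other of the measured genes. Its values lie near the highest in the deposited table, 19.93, and whether the top of the scale limits its change was not tested. The 12 distal and connecting tubule markers had a median change of -0.01, with 6 of 12 below 0 and a range from -1.09 to 1.06. None was called higher and Tmem52b was called lower, joined by Pvalb in the blocked fit. With quantile normalization 5 of the 12 were called lower. The Klk1b genes are close paralogs on the same chromosome whose probes can share signal with Klk1. All 10 measured ones of 13 changed below 0 (median -0.28, from -0.56 to -0.17), none passed the test, and none had groups that did not overlap. Klk1b5 passed with quantile normalization (adjusted p = 0.0343).

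Calls were lost when a kidney was left out, named here by the replicate number of the labels. Without saline kidney 1 or without metformin kidney 1 none of the 8 genes was called by limma, although 842 and 1249 of all genes still were. In both of these fits 5 of the 8 genes had an unadjusted limma p under 0.05. The share of all genes under that limit was not counted here, so this count stands without a comparison. The changes without saline kidney 1 were -0.49 for Agt, -1.20 for Ace, -0.64 for Enpep and -0.70 for Mep1a. With metformin kidney 1 left out they were -0.45, -0.90, -0.56 and -0.61 for the same genes. In the other fits 1 call was left without saline kidney 3 (Enpep) and without metformin kidney 2 (Agt), and 3 were left without metformin kidney 3 (Ace, Enpep and Mep1a). Without saline kidney 2 there were 6, the 4 called in all arrays together with Mme and Agtr1a. The direction was below 0 for all 8 genes in each of these fits.

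**Figure D2:**
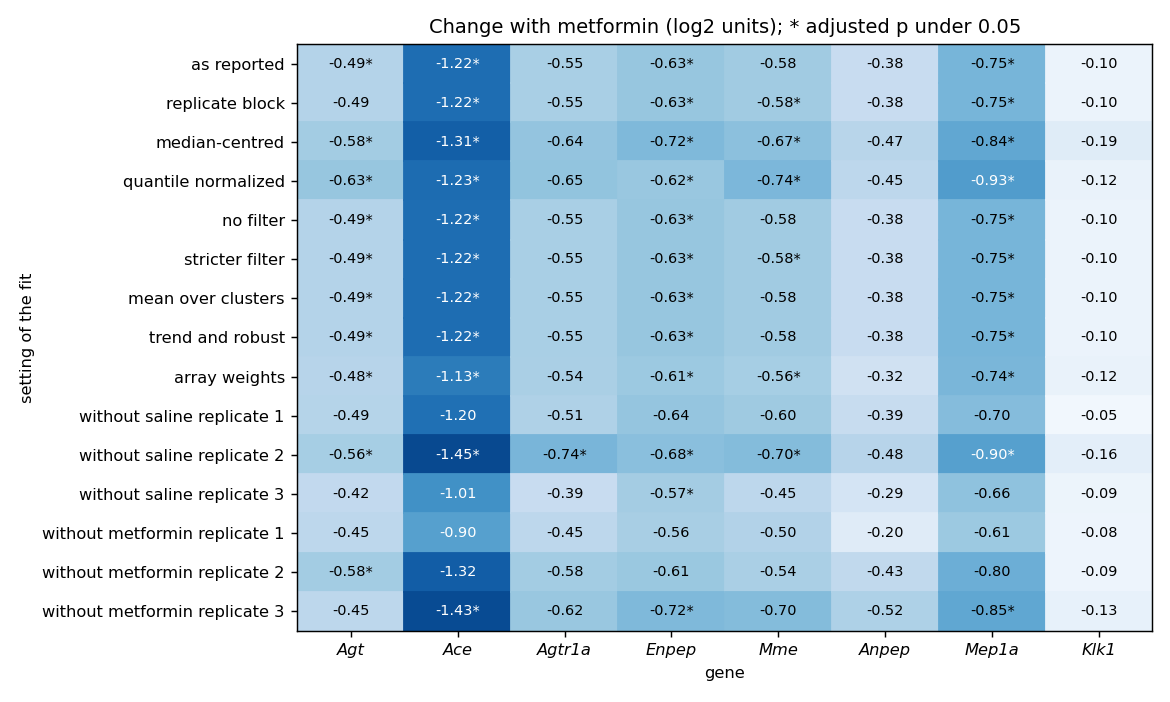
Change of each of the 8 genes (columns, log2 units) in the fit of all 6 arrays and in 14 other settings (rows), with darker blue for a greater fall and a star for an adjusted p under 0.05. No cell lies above 0, and the rows without saline kidney 1 and without metformin kidney 1 hold no star.

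Most of the 8 genes ordered the kidneys alike. Saline kidney 2 was the lowest saline kidney in 8 of 8 genes, beside 37.9% of all genes tested. Saline kidney 3 was the highest saline kidney in 7 of 8 (34.3% of all genes), all but Klk1. Metformin kidney 1 was the lowest metformin kidney in 7 of 8 (27.7%), all but Agt, and metformin kidney 3 the highest in 7 of 8 (27.2%), again all but Agt. These orders were noticed in the data and are descriptions. The proximal tubule markers showed them in 18, 17, 19 and 20 of 21 genes, and the other brush border hydrolases in 10, 4, 9 and 7 of 10. All of these orders together held in 6 of the 8 genes, 13 of the 21 markers and 3 of the 10 hydrolases, beside 5.59% of all genes.

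All 21 proximal tubule markers were measured, and each had a change below 0, with 7 called lower, none higher and a median of -0.76. The number called lower was 15 in the fit blocked by replicate number, 8 after median-centring and 17 after quantile normalization. It was 0 without saline kidney 1 or metformin kidney 2, 1 without saline kidney 3 or metformin kidney 1, 7 without saline kidney 2 and 8 without metformin kidney 3, and none was called higher in these fits. Their score was 0.31, 0.13 and 0.63 in saline kidneys 1 to 3 and -0.74, -0.31 and -0.03 in metformin kidneys 1 to 3, without overlap. The mean log2 level of the list ran from 15.04 to 15.54 in saline and from 14.17 to 14.88 in metformin kidneys. Set against this score on the same array, the change of most of the genes was small: -0.04 for Mep1a, 0.08 for Enpep, 0.13 for Mme, 0.16 for Agtr1a and 0.22 for Agt, each with overlapping groups. Ace changed by more than the score, with 0.33, 0.02 and 0.41 in saline and -0.51, -0.09 and -0.16 in metformin kidneys, a change of -0.51 with no overlap. Anpep and Klk1 had changes of 0.33 and 0.61 against the score, again with no overlap. Klk1 itself changed by only -0.10, so its value against the score mainly gives the fall of the score. The changes of the 21 markers themselves ran from -1.33 to -0.08. That range holds the changes of Ace (-1.22) and Anpep (-0.38), so departing from the score was not particular to these genes. Klk1 lies within it only through Slc7a13 (-0.08), a dim gene with means of 5.25 in saline and 5.18 in metformin kidneys. The next smallest marker change was that of Slc27a2, -0.14. For each of Ace, Anpep and Klk1 the two-sided exact permutation test over the 6 arrays gave p = 0.1, the smallest that 3 against 3 arrays allow. The p of that test was 0.267 after Benjamini-Hochberg adjustment over the 8 comparisons, so no comparison of this size could have passed.

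**Figure D3:**
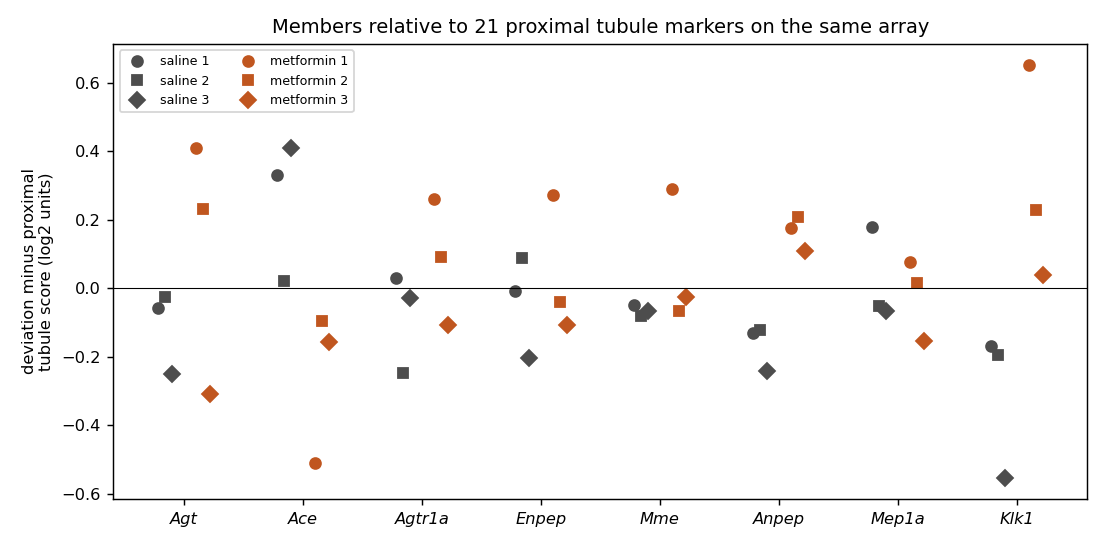
Deviation of each gene from its mean over 6 arrays, minus the score of 21 proximal tubule markers on the same array (log2 units), with a point per array. The metformin points of Ace lie below its saline points and those of Anpep and Klk1 above, while the groups of the other genes overlap.

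Endothelium carries Ace as well. Of 9 measured endothelial markers (of 10 listed) 2 were called lower and none higher, with a median change of -0.40 and 7 below 0. The calls were Ehd3 at -1.66 and the angiopoietin receptor Tek at -0.45. Cdh5 at 0.22 and Eng at 0.02 lay above 0 and did not pass. The endothelial score was 0.40, 0.37 and -0.06 in saline and -0.41, -0.14 and -0.16 in metformin kidneys, without overlap. Mesangial and mural cells carry Agtr1a. Mural and smooth muscle markers (10 of 10 measured) had overlapping scores and a median of -0.06, with Rgs5 (-0.79) and Myh11 (-0.87) lower. Tagln at 0.87 (adjusted p = 0.0722), Mcam at 0.76 (adjusted p = 0.0579) and Notch3 at 0.44 (adjusted p = 0.0938) lay above 0 and did not pass. In the fit blocked by replicate number Tagln and Mcam were called higher, so that 2 rose beside 2 that fell, and the call of Myh11 ended with no filter (adjusted p = 0.0531). Mesangial markers had a median of -0.39 in 3 measured of 6, with Art3 lower (-0.50; adjusted p = 0.0473), a call that ended with the block (0.060) and with no filter (0.0546). Podocyte markers had a median of -0.07 in 7 measured of 10 with none called. Macrophage markers (11 of 12 measured) had a median of 0.76, with Lyz2 higher (1.99) and overlapping scores, and 4 were called higher in the blocked fit. The 3 measured erythroid markers of 8 had a median of -0.53, and no globin gene was among them. Alas2 (-0.53) and Slc4a1 (-0.86) were called lower. Epb42 (0.12) was not called, with means of 4.13 in saline and 4.24 in metformin kidneys. Of 8 adrenal genes 5 passed the filter, with mean levels of 4.24 to 4.45 beside a filter limit of 4.03, and none was called. The part of these cell types in the results was not tested.

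**Figure D4:**
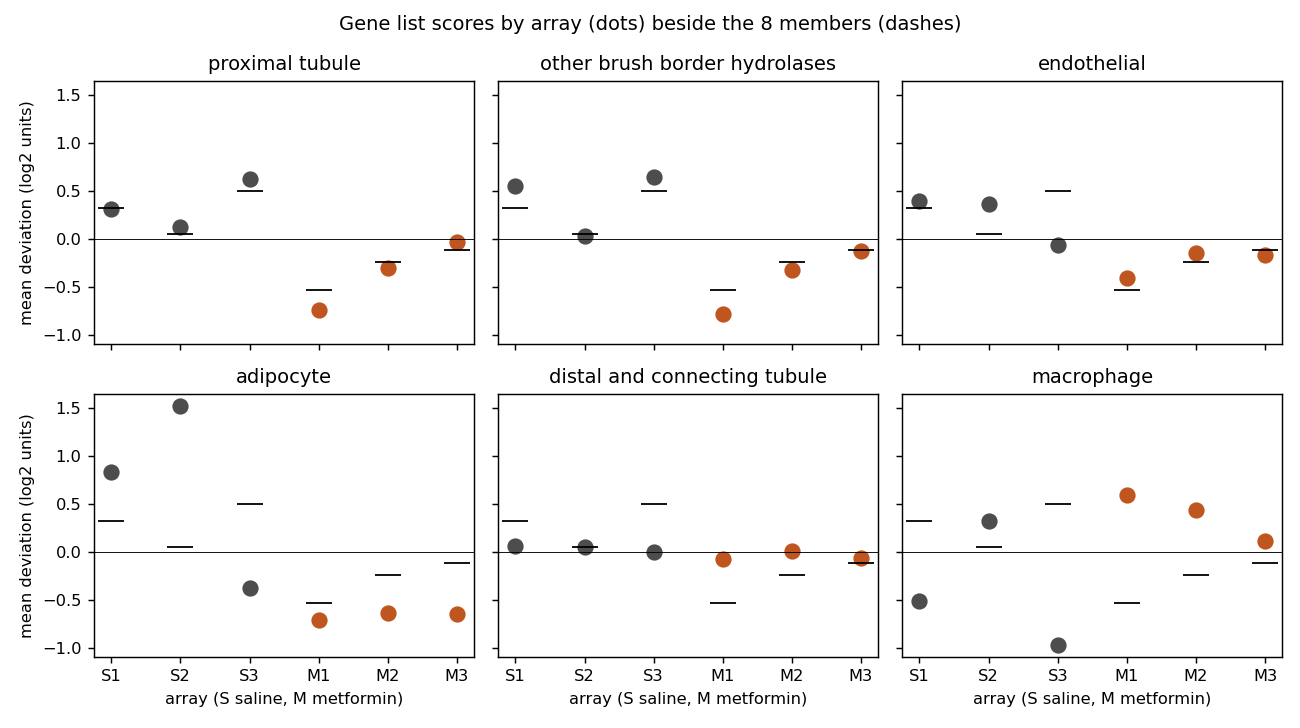
Score of 6 gene lists by array (dots, grey for saline and orange for metformin), as the mean log2 deviation of the list's genes, beside the score of the 8 genes on that array (dashes). The dashes and the dots of the proximal tubule and hydrolase lists lie above 0 on the saline arrays and below 0 on the metformin arrays.

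Beyond these 8 genes, 13 of 18 other renin-angiotensin genes were tested, and 2 fell, 1 rose and 10 did not pass, with a median of -0.07. Prcp, the carboxypeptidase that inactivates angiotensin II and activates prekallikrein, had values of 11.16, 10.93 and 11.00 against 10.23, 10.24 and 10.25, and fell by 0.79 ± 0.09 (SE; limma adjusted p = 0.00735). Its groups were far apart next to the spread within each, and its call held in all 6 fits that left out a kidney. Atp6ap2, the prorenin receptor and a subunit of the vacuolar proton pump, changed by -0.54 (adjusted p = 0.0407), a call that ended with the block (0.0527) and with the trend and robust options (0.0506). Arap1, listed here by its symbol, rose by 0.45 (adjusted p = 0.0355), which did not pass after median-centring (0.0914) or quantile normalization (0.122). Whether its product acts on angiotensin receptors was not tested. The mineralocorticoid receptor Nr3c2 changed by 0.08 and Hsd11b2, which shields it from glucocorticoids, by -0.45 (adjusted p = 0.0973), neither past the test. Hsd11b2 passed with quantile normalization (0.0285).

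Of 9 kinin system genes 6 were tested, with 1 lower and a median of -0.34. Cpn1, the catalytic chain of carboxypeptidase N that trims kinins, had values of 14.02, 13.89 and 13.67 against 12.93, 13.08 and 13.12 and fell by 0.82 ± 0.12 (SE; limma adjusted p = 0.00934), with the call held in all 6 fits that left out a kidney. The kininogen genes Kng1 and Kng2, the substrates of Klk1, changed by -0.52 (adjusted p = 0.0547) and -0.39 (adjusted p = 0.125) with groups that did not overlap. Kng1 passed with median-centring (0.0377), quantile normalization (0.0315), the stricter filter (0.0483) and array weights (0.0383). Kng2 passed with quantile normalization (0.0367). The kinin receptor Bdkrb2 changed by 0.24 (adjusted p = 0.433).

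Of 11 other brush border hydrolases and related surface proteins 10 were tested. All 10 changes lay below 0, 5 were called, none rose, and the median was -0.81. With the clusters of a gene averaged the median was -0.72. Xpnpep2, the membrane aminopeptidase P that cleaves bradykinin, had values of 7.59, 7.19 and 7.26 against 5.94, 6.29 and 6.28, a 2.26-fold fall (limma adjusted p = 0.00735) that held in all 6 fits that left out a kidney. Mgam, maltase-glucoamylase, fell by 1.06, trehalase Treh by 0.84, collectrin Cltrn by 0.77 and tissue alkaline phosphatase Alpl by 0.58. The call of Cltrn (adjusted p = 0.0454) ended with no filter (0.0535) and with the trend and robust options (0.0518). The dipeptidase Dpep1 (-1.16), glutamate carboxypeptidase Folh1 (-0.66), aminoacylase Acy3 (-0.64) and dipeptidyl peptidase Dpp4 (-0.31) did not pass. Acy3 did in the fit blocked by replicate number (adjusted p = 0.0420) and with quantile normalization (0.0177). Folh1 did with median-centring (0.0436), quantile normalization (0.0303) and array weights (0.0344). Of 10 brush border scaffold genes 3 fell, the plastin Pls1 by 1.24 and the microvillar cadherins Cdhr5 and Cdhr2 by 0.77 each, with villin Vil1 at -0.70 (adjusted p = 0.0539; 0.0266 in the blocked fit) and ezrin Ezr at 0.11 (adjusted p = 0.548). The call of Cdhr2 (adjusted p = 0.0485) ended with no filter (0.0575) and with the trend and robust options (0.0520).

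**Figure D5:**
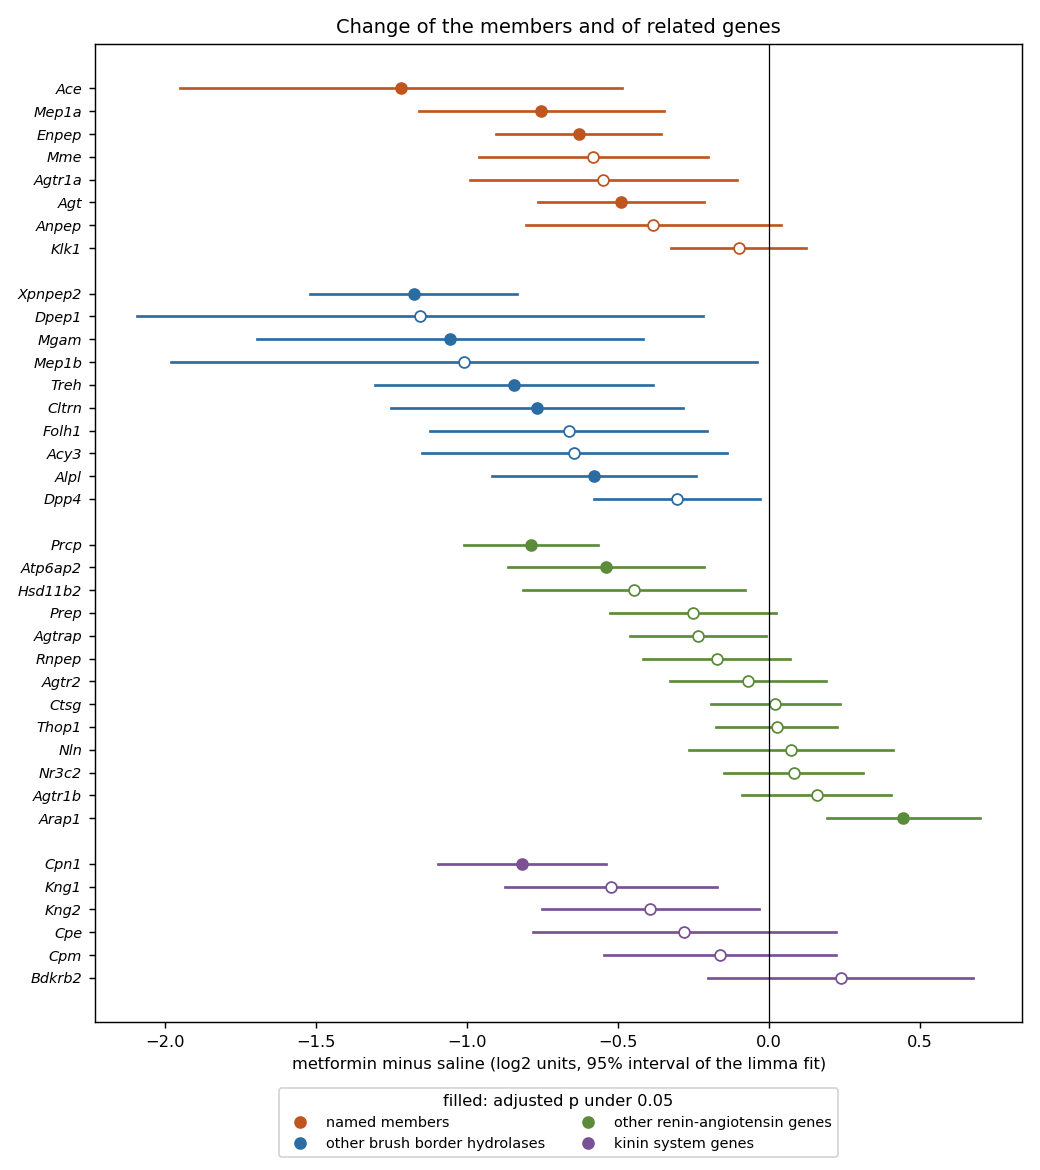
Metformin minus saline in log2 units with the 95% interval of the limma fit for the 8 genes and for the hydrolase, renin-angiotensin and kinin lists, filled where the adjusted p was under 0.05. Points of the first 2 groups all lie below 0, and points of the renin-angiotensin and kinin lists lie on both sides.

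Among 14 tested of 19 genes that control renin cells, 3 rose and none fell as deposited, with a median of -0.03: adenylyl cyclase Adcy6 by 0.67 (limma adjusted p = 0.0217), and the CREB co-activators Crebbp by 0.57 and Ep300 by 0.56. These are expressed in many kidney cells, and the call of Crebbp ended after median-centring (adjusted p = 0.0530). The count depended on the setting, with 3 higher and 2 lower in the fit blocked by replicate number (Nr1h3 and Casr lower), 2 and 2 after median-centring, and 3 and 3 after quantile normalization. Of 5 transcription factors of the proximal tubule 3 were tested. Hnf4g fell by 0.64 (adjusted p = 0.0303), Hnf4a changed by -0.51 (adjusted p = 0.0689) and Maf by -0.27 (adjusted p = 0.114). Of the 16 calls over these pathway lists, 3 stayed when saline kidney 1 was left out, 5 for saline kidney 3 and 16 for saline kidney 2, and 4, 3 and 8 when metformin kidney 1, 2 or 3 was left out.

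Genes with the pattern nearest to each called gene were taken from 14216 other named protein-coding genes by the mean absolute difference of centred values over the 6 arrays. For Ace these were Slc22a13 at 0.055 log2 units, a transporter of the organic anion family, then Ugt3a1 at 0.076 and Tmem207 at 0.084. For Enpep they were the peroxisome biogenesis gene Pex3 at 0.017, the sulphate-activating Papss1 at 0.033 and Iars2, the mitochondrial isoleucyl-tRNA synthetase, at 0.034. For Mep1a they were the mitochondrial serine carrier Sfxn1 at 0.030, Dld at 0.035 and Scrn3 at 0.036, and for Agt they were Ints2 at 0.019, Cmc2 at 0.033 and Uqcc3 at 0.041. The group difference itself enters this measure, so a likeness in it is no separate evidence.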

How the data were processed

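Per the labels' protocols, TRIzol was used for extraction from frozen kidney and the biotin label came from a GeneChip WT PLUS kit. The table deposited by the authors holds log2 expression for each transcript cluster. The submitters' processing notes name RMA and Transcriptome Analysis Console 4.0, and the genome build is not stated in them. Values above 16 exceed what a scanner of 16 bits records, so folds refer to the scale of the table. Array medians ran from 4.67 to 4.86. The number of arrays, 3 per group, limits the precision.

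Of 65956 clusters, 30604 have 1 gene symbol, 2146 several, and 33206 are unnamed here. Symbols were updated through RefSeq GRCm38.p6 (22818 matched, 827 changed). The 33.3% of clusters with the lowest mean (at or under 4.03) were left out, and the highest-mean cluster was kept per gene. A two-sided limma 3.58.1 test (R 4.3.3), with no covariate, was run on the 22086 genes. The test was checked on simulated data. The genes, lists and alternatives were chosen with earlier results of these data known. The rule named the 8 genes, pathway list genes past the threshold or with the smallest p, and the 3 nearest patterns. Marker genes, and further list genes such as Agtr1b, Agtr2, Nr3c2 and Ezr, were picked after their values were seen.

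Deviations from the group means correlated at 0.118, 0.145 and 0.541 between kidneys of replicate numbers 1, 2 and 3, so a fit blocked by that number was run. It is given where it changed the call of a named gene, or moved a list's count of calls by over 1.5 times. Saline 2 with metformin 1 reached 0.299. The labels call the samples biological replicates and do not say what a number marks. The other alternatives were leaving out each kidney, array weights, trend and robust options, a looser and a stricter filter, averaging the clusters of a gene, quantile normalization and median-centring.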

Additional observations from a re-analysis of the deposited data

How the results depend on the processing

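All 8 changes stayed below 0 in each of the 14 alternatives. The count of the 8 genes called, 4 as reported, was 4 or 5 in the 8 alternatives that kept every kidney, and 0 to 6 when a kidney was left out. Mme was called with the replicate block, median-centring, quantile normalization, the stricter filter and array weights (adjusted p from 0.0127 to 0.0443), and Agt was not called with the replicate block. The replicate block changed no other call among the 8 genes. The calls over the pathway lists numbered 16 as reported, 26 with quantile normalization, and 3 to 26 when a kidney was left out. Over all genes 3489 were called, and 842 to 3965 when a kidney was left out. Quantile normalization moved the median change of all genes by -0.12 and median-centring by -0.09. Of all genes called, 42.5% were higher in the deposited values (1483 against 2006 lower). With median-centring this was 25.2% (913 against 2713), and with quantile normalization 20.7% (993 against 3806). The median change of the 8 genes relative to that of all genes was -0.58 in the deposited values and with median-centring, and -0.54 with quantile normalization. The cause of the lost calls was not tested. Each of the fits that left out a kidney had 1 array fewer, and the one without saline kidney 2 called 3965 genes and 6 of the 8.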
